A study of Mus musculus with 6 samples.

Results

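Ribosome-associated RNA taken from the medial prefrontal cortex (mPFC) was examined for 10 genes that mark the endothelial cells of brain vessels, namely Cldn5, Pecam1, Flt1, Slc2a1, Kdr, Tek, Abcb1a, Ly6c1, Slco1a4 and Itm2a. They were chosen by name, and all rows of the transcript table carrying these names were used, giving 43 transcripts of 115220 and 10 genes of 47729. The libraries came from 3 Ctrl and 3 Gsk3sKO samples of adult male C57BL/6 mice. All mice carried D2Cre, LSL-Flag-Cas9 and RiboTag, and were injected at 2.5 to 3 months of age into the mPFC with AAV GFP (Ctrl) or with AAV Gsk3sgRNA/GFP (Gsk3sKO), 3 weeks before the tissue was taken. Cre under control of the dopamine D2 receptor gene turns on both Cas9 and a hemagglutinin tag on the ribosomal protein Rpl22, so Gsk3b can be cut only in cells where Cre has acted, and the immunoprecipitation (IP) is directed at ribosomes of the same cells. Cas9 was therefore present in both groups and only the guide RNA differed. Whether each library came from 1 mouse or from several pooled mice is not given in the sources used here, so the p-values describe the spread between these libraries.

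Endothelial cells line the capillaries of the brain and form the blood-brain barrier. They seal their borders with tight junctions, carry glucose and other solutes through dedicated transporters, and pump foreign compounds back into the blood. Growth factors of the VEGF and angiopoietin families act on them through receptor kinases, and Wnt ligands from the surrounding neural tissue maintain barrier genes through β-catenin, a protein that the kinase GSK3β marks for degradation. The tag is meant for D2 neurons, and input RNA from before the IP was not analysed here. How far the IP lowered the endothelial genes, and whether their RNA came from untagged cells, was therefore not tested. In such bulk RNA, fewer endothelial cells and less RNA per cell cannot be told apart.

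All 10 endothelial genes were detected in each of the 6 libraries, and none passed the test of a difference between Gsk3sKO and Ctrl. Levels are given as FPKM, fragments per kilobase of transcript scaled to the mapped fragments of the library, summed over the transcripts of a gene (the gene total). At an unadjusted p under 0.05 in limma, 0 of 10 members were called, against a background of 6.56% of the 12874 gene totals with a mean of at least 1 FPKM, made up of 1.36% higher and 5.2% lower in Gsk3sKO. At an adjusted p under 0.05 the members again numbered 0, against 0.0466% of all gene totals. The values of Ctrl and Gsk3sKO overlapped in all 10 members, while the groups did not overlap in 12% of all gene totals tested. What varied was the library. Ctrl replicate 2 and Gsk3sKO replicate 3 were the highest of their groups in 10 of 10 members, and Ctrl replicate 1 was the lowest of its group in 9 of 10.

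The mean gene total over the 6 libraries ran from 14.4 FPKM for Slco1a4 to 1.83 FPKM for Kdr. Between them came Slc2a1 (mean 11.0 FPKM), Flt1 (10.5 FPKM), Itm2a (10.5 FPKM), Abcb1a (5.56 FPKM), Cldn5 (4.48 FPKM), Ly6c1 (3.93 FPKM), Pecam1 (3.12 FPKM) and Tek (2.15 FPKM). FPKM is a level per length, so these genes can be set beside each other. The ranges over libraries overlapped for every pair of neighbours in this order, and Itm2a above Abcb1a was the one neighbour pair with the same order in all 6 libraries. For scale, the neuronal gene Snap25, which encodes a synaptic vesicle fusion protein, lay between 991 and 1134 FPKM in these libraries.

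**Figure D1:**
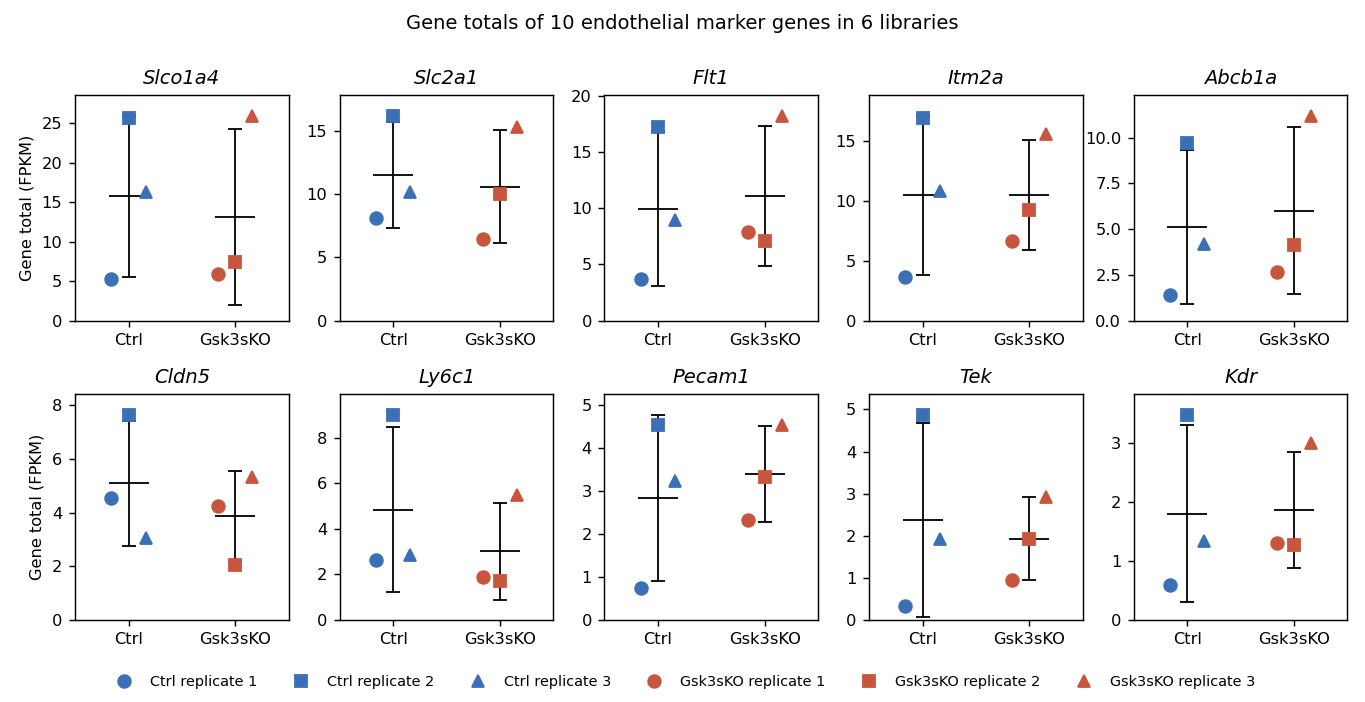
Gene totals (FPKM, each panel with its own axis from 0) of the 10 endothelial genes in the 3 Ctrl and 3 Gsk3sKO libraries, ordered by mean level; each point is 1 library, and the horizontal bar and whiskers are the group mean and SD (n = 3). Ctrl replicate 2 (blue square) and Gsk3sKO replicate 3 (red triangle) sit at the top of their groups in all 10 panels, and the groups overlap in each.

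Slco1a4, Slc2a1 and Abcb1a carry solutes across the endothelial membrane. Slco1a4 (chr6:141805440-141856199, GRCm38) encodes the organic anion transporter Oatp1a4, a broad carrier of steroid conjugates, bile acids and drugs. Its gene total was 5.24, 25.7 and 16.3 FPKM in Ctrl replicates 1 to 3 and 5.91, 7.42 and 25.9 FPKM in Gsk3sKO replicates 1 to 3. A single high library in Gsk3sKO thus matched the highest of Ctrl, and the other two lay near the lowest. On the log2(FPKM + 1) scale used for all fold changes here, Slco1a4 differed by -0.29 (SE 0.62, 95% interval -1.72 to 1.14, limma, adjusted p = 0.944), smaller than the spread within groups.

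Slc2a1 (chr4:119108711-119137983) encodes GLUT1, the carrier by which glucose enters the brain, which glial cells also make at a lower level. It had the smallest range of the 3 carriers. Its gene total was 8.10, 16.2 and 10.2 FPKM in Ctrl and 6.43, 9.99 and 15.3 FPKM in Gsk3sKO, with 1 high library in each group. The log2 fold change was -0.13 (SE 0.33, 95% interval -0.90 to 0.63, limma, adjusted p = 0.955), and turned to 0.050 when libraries were rescaled without the abundant short RNA Gm23935.

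Abcb1a (chr5:8660077-8748575) encodes P-glycoprotein, the pump that returns many drugs from the endothelium to the blood. It was present at 1.42, 9.69 and 4.22 FPKM in Ctrl and 2.67, 4.14 and 11.2 FPKM in Gsk3sKO, so that the highest library held several times the level of the lowest in both groups (6.84-fold in Ctrl and 4.20-fold in Gsk3sKO). The log2 fold change was 0.26 (SE 0.59, 95% interval -1.10 to 1.62, limma, adjusted p = 0.949), and turned to -0.12 when protein-coding transcripts alone were counted. Abcb1b, the close copy of Abcb1a, reached at most 0.847 FPKM in any library, and reads shared by both copies could be divided either way.

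Cldn5 and Pecam1 belong to the contacts between endothelial cells. Cldn5 (chr16:18776847-18778262) encodes claudin-5, the main tight junction strand protein of the blood-brain barrier, and has 1 listed transcript, so no division between isoforms enters its value. It stood at 4.56, 7.65 and 3.05 FPKM in Ctrl and 4.22, 2.06 and 5.33 FPKM in Gsk3sKO. Cldn5 was the only member whose lowest Ctrl library was replicate 3 and not replicate 1. The difference was -0.31 on the log2 scale (SE 0.37, 95% interval -1.17 to 0.54, limma, adjusted p = 0.908).

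Pecam1 (chr11:106654217-106750628) encodes CD31, an adhesion molecule of endothelial borders that platelets and leukocytes also carry. Its gene total was 0.736, 4.55 and 3.23 FPKM in Ctrl and 2.32, 3.34 and 4.55 FPKM in Gsk3sKO, and Ctrl replicate 1 alone fell below 1 FPKM. The log2 fold change was 0.32 (SE 0.45, 95% interval -0.70 to 1.34, limma, adjusted p = 0.919).

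Flt1, Kdr and Tek encode receptor kinases of vessel growth. Flt1 (chr5:147561604-147726011) is VEGF receptor 1, which binds VEGF tightly and signals weakly. Its gene total was 3.70, 17.3 and 8.91 FPKM in Ctrl and 7.85, 7.13 and 18.2 FPKM in Gsk3sKO. Ctrl replicate 2 and Gsk3sKO replicate 3 held close to equal levels, while the remaining 4 libraries were at 8.91 FPKM or below. The log2 fold change of Flt1 was 0.23 (SE 0.51, 95% interval -0.93 to 1.39, limma, adjusted p = 0.946).

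Kdr (chr5:75932827-75978458) is VEGF receptor 2, the main signalling receptor for VEGF in endothelium. It was the lowest of the 10 genes, at 0.592, 3.48 and 1.34 FPKM in Ctrl and 1.31, 1.27 and 2.996 FPKM in Gsk3sKO. The difference was 0.11 on the log2 scale (SE 0.44, 95% interval -0.90 to 1.12, limma, adjusted p = 0.972). Tek (chr4:94739289-94874976) is the angiopoietin receptor TIE2, which stabilises resting vessels. Tek had the widest range within a group, with 0.317, 4.88 and 1.92 FPKM in Ctrl (15.4-fold from lowest to highest) against 0.948, 1.92 and 2.93 FPKM in Gsk3sKO. Its group difference was near 0, at -0.01 (SE 0.54, 95% interval -1.25 to 1.23, limma, adjusted p = 0.999), and its sign turned under 4 of the other ways of scaling or selecting the values.

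Ly6c1 and Itm2a are membrane proteins used as markers of brain endothelium. Ly6c1 (chr15:75044018-75048830) encodes a lipid-anchored surface antigen that some leukocytes carry as well. It stood at 2.64, 9.02 and 2.86 FPKM in Ctrl and 1.86, 1.72 and 5.49 FPKM in Gsk3sKO, with 1 library high in each group. Ly6c1 had the lowest p of the members, with a log2 fold change of -0.49 (SE 0.49, 95% interval -1.60 to 0.62, limma, unadjusted p = 0.338, adjusted p = 0.879). Its near-identical neighbour Ly6c2 was at 1.20 FPKM or less, so the share of reads between the copies is uncertain. Itm2a (chrX:107397099-107403376) encodes a BRICHOS-domain membrane protein and has 1 listed transcript. Its gene total was 3.64, 16.9 and 10.8 FPKM in Ctrl and 6.66, 9.23 and 15.6 FPKM in Gsk3sKO, with group means of 10.5 ± 6.66 and 10.5 ± 4.58 FPKM (SD, n = 3 each). The log2 fold change was 0.13 (SE 0.49, 95% interval -0.98 to 1.25, limma, adjusted p = 0.969).

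Over the 10 members, 5 log2 fold changes were positive and 5 negative, with a median of 0.05, beside a median of -0.06 over all gene totals tested. After rescaling without Gm23935, 7 were positive and 3 negative, and the medians were 0.27 and 0.10. The lowest exact permutation p of a member, two-sided over the 6 libraries, was 0.5, where 3 against 3 libraries cannot give a p below 0.1. The intervals were wide. They extended from between -1.72 and -0.70 at the lower end to between 0.54 and 1.62 at the upper end, so that for no member did the data exclude a change of 0.5 on the log2 scale in either direction. The summed FPKM of the 10 genes was 31.0, 115 and 62.9 in Ctrl and 40.2, 48.2 and 108 in Gsk3sKO, with means of 69.7 ± 42.6 and 65.3 ± 36.8 (SD, n = 3 each).

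**Figure D2:**
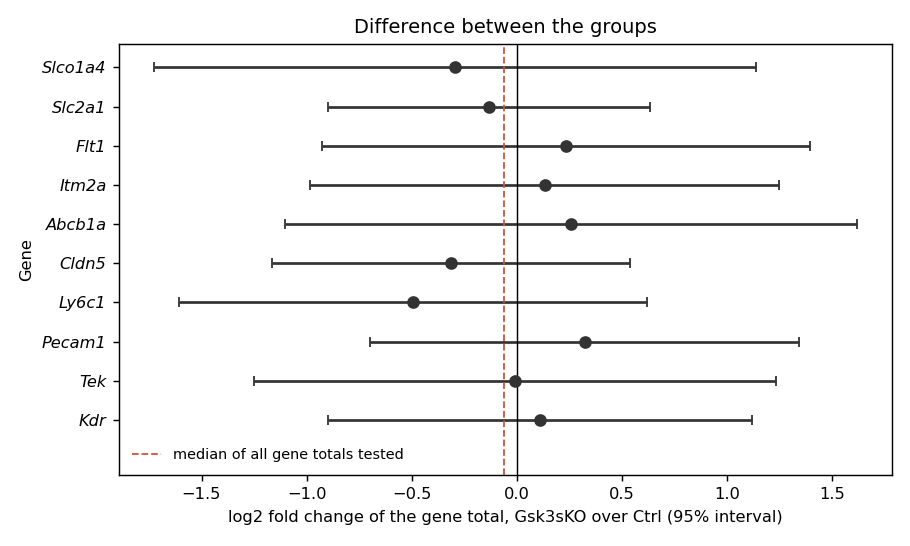
Log2 fold change of the gene total (Gsk3sKO over Ctrl, on log2(FPKM + 1)) for each endothelial gene, with its 95% interval from limma; the dashed line is the median of all gene totals tested (-0.06). The points lie between -0.49 (Ly6c1) and 0.32 (Pecam1), and all 10 intervals include 0.

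The endothelial genes differed among the libraries of 1 group more than most genes did. The SD within groups of log2(FPKM + 1) was between 0.519 (Slc2a1) and 1.07 (Slco1a4), with a median of 0.787. Over all 12874 gene totals tested the median was 0.294, and over the 6898 of them with a mean within the range of the members it was 0.330. The members stood between the 82.2 and 98.0 percentile of all gene totals. The median SD of the members was thus above that of all gene totals and of those at similar levels.

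**Figure D3:**
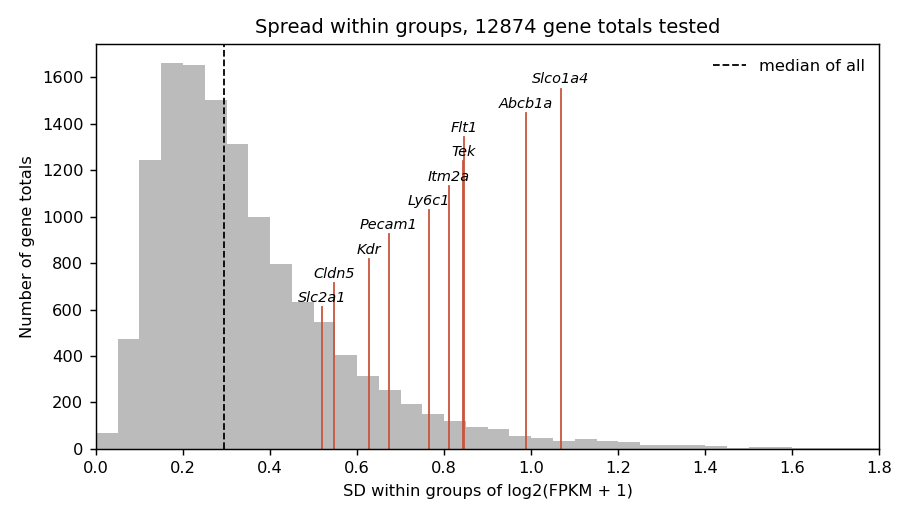
Histogram of the SD within groups of log2(FPKM + 1) (x axis) for the 12874 gene totals tested (y axis, number of gene totals), with the 10 endothelial genes marked by red lines whose heights only separate the names. The dashed line is the median of all gene totals (0.294), and every member lies to its right, from Slc2a1 (0.519) to Slco1a4 (1.07).

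The members moved together across the libraries. In 9 of 10 members, Ctrl replicate 2 was the highest and Ctrl replicate 1 the lowest of Ctrl while Gsk3sKO replicate 3 was the highest of Gsk3sKO, an order found in 856 of all 12874 gene totals tested (6.65%). Cldn5 was the exception. This order was read from the members' own values, so their count carries no test. Taken singly, Ctrl replicate 2 was the highest Ctrl library in 31.2% of all gene totals, Ctrl replicate 1 the lowest in 46.9%, and Gsk3sKO replicate 3 the highest Gsk3sKO library in 32.0%. The summed FPKM of Ctrl replicate 2 was 3.73-fold that of Ctrl replicate 1, and that of Gsk3sKO replicate 3 was 2.67-fold that of Gsk3sKO replicate 1.

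Pearson's r between 2 members over the 6 libraries, on log2(FPKM + 1), had a median of 0.872 over the 45 pairs. The highest value, 0.981, belonged to the VEGF receptors Flt1 and Kdr, and the lowest, 0.150, to Cldn5 and Pecam1. All 28 pairs without Cldn5 and Ly6c1 had an r of at least 0.729. These values describe 6 points that share library, depth and scaling, and carry no test.

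The libraries also differed in depth. Inferred from the steps between the lowest values, the libraries held about 45000000, 32000000 and 23400000 fragments in Ctrl and 41200000, 28800000 and 30100000 fragments in Gsk3sKO. Ctrl replicate 1 was the deepest and Ctrl replicate 3 the shallowest. Behind the gene totals of the members stood an estimated 41.5 fragments (Ly6c1 in Gsk3sKO replicate 2) to 3511 fragments (Flt1 in Ctrl replicate 2). The short RNA Gm23935 was a single abundant transcript, chosen after its values were seen. It took 24.3%, 24.9% and 12.9% of all FPKM among the Ctrl libraries and 13.4%, 12.2% and 7.80% among the Gsk3sKO libraries. Ctrl replicates 1 and 2 had nearly the same share, and the lowest and highest summed FPKM of the members in Ctrl (31.0 and 115). Within Gsk3sKO the share fell from replicate 1 to replicate 3, while the summed FPKM rose (40.2, 48.2 and 108). The part of depth and of Gm23935 in the library order was not tested. The targeted gene Gsk3b stood at 35.6, 53.8 and 56.5 FPKM in Ctrl and 36.9, 37.0 and 33.6 FPKM in Gsk3sKO (log2 fold change -0.40, SE 0.19, limma, unadjusted p = 0.0648, adjusted p = 0.773). Small insertions and deletions made by Cas9 need not lower the RNA, so this gene is a weak check of the labels.

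The library order was shared by other vascular genes to differing extents. Of 16 further endothelial junction and surface genes tested, 8 showed the same order of libraries as the members, as did 6 of 8 endothelial transcription factors and 4 of 6 mural cell markers, against 6.65% of all gene totals. The other brain endothelial transporters showed it in 1 of 16 genes tested, the VEGF and angiopoietin list in 2 of 8 and the Wnt pathway list in 5 of 13. The median deviation from each gene's mean was -1.07 and 0.81 for the members in Ctrl replicates 1 and 2, -0.52 and 0.48 for the transcription factors, and -0.50 and 0.65 for the mural genes (log2). Rgs5, a pericyte gene that restrains G protein signalling, followed the members, with 4.90, 18.9 and 12.02 FPKM in Ctrl and 8.06, 10.8 and 26.1 FPKM in Gsk3sKO. Vtn, which pericytes make as the matrix protein vitronectin, shared only the high Ctrl replicate 2 and Gsk3sKO replicate 3, at 11.2, 11.99 and 5.48 FPKM in Ctrl and 4.43, 5.79 and 11.5 FPKM in Gsk3sKO.

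Among markers of other cell types, the same order of libraries was found, against the same 6.65%, in 1 of 10 neuron markers, 0 of 7 D2 neuron markers, 0 of 8 microglia markers, 0 of 4 blood cell markers, 1 of 4 vascular fibroblast markers, 2 of 10 oligodendrocyte markers and 3 of 9 astrocyte markers. By their median deviations, the astrocyte and vascular fibroblast markers were also lowest of Ctrl in replicate 1 (-0.08 and -0.26 on the log2 scale) and highest in Ctrl replicate 2 (0.11 and 0.25) and Gsk3sKO replicate 3 (0.20 and 0.23), with smaller values than the members. The D2 neuron (-0.78), blood cell (-0.77) and oligodendrocyte markers (-0.29) were lowest of Ctrl in replicate 1 as well. Of these, the blood cell markers were highest of Ctrl in replicate 2 (0.67), and the D2 neuron and oligodendrocyte markers in replicate 3 (0.61 and 0.40). In the microglia markers Ctrl replicate 1 was the highest of Ctrl (0.37), and the neuron markers were at 0.02 there. Of the 4 blood cell genes, 3 were highest in Ctrl replicate 2 and lowest in Ctrl replicate 1, and 0 were highest in Gsk3sKO replicate 3. The α-globin genes Hba-a1 (21.99 to 52.7 FPKM in Ctrl, 23.8 to 36.6 FPKM in Gsk3sKO) and Hba-a2 were among them, Hba-a2 being at 27.5, 70.5 and 47.1 FPKM in Ctrl and 41.8, 27.1 and 36.1 FPKM in Gsk3sKO. Drd2, the D2 receptor gene, was lowest in Ctrl replicate 1 like the endothelial genes but highest in Ctrl replicate 3, at 1.58, 6.02 and 14.1 FPKM in Ctrl and 8.32, 5.96 and 7.28 FPKM in Gsk3sKO. The summed FPKM of the neuron markers stayed between 2715 and 2903 in the 6 libraries, a sum in which Snap25 and Syt1 (means of 1086 and 499 FPKM) weigh most. Single neuron markers varied more. Gad1, the one with the members' order of libraries, was at 95.7, 237 and 137 FPKM in Ctrl and 139, 149 and 165 FPKM in Gsk3sKO.

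**Figure D4:**
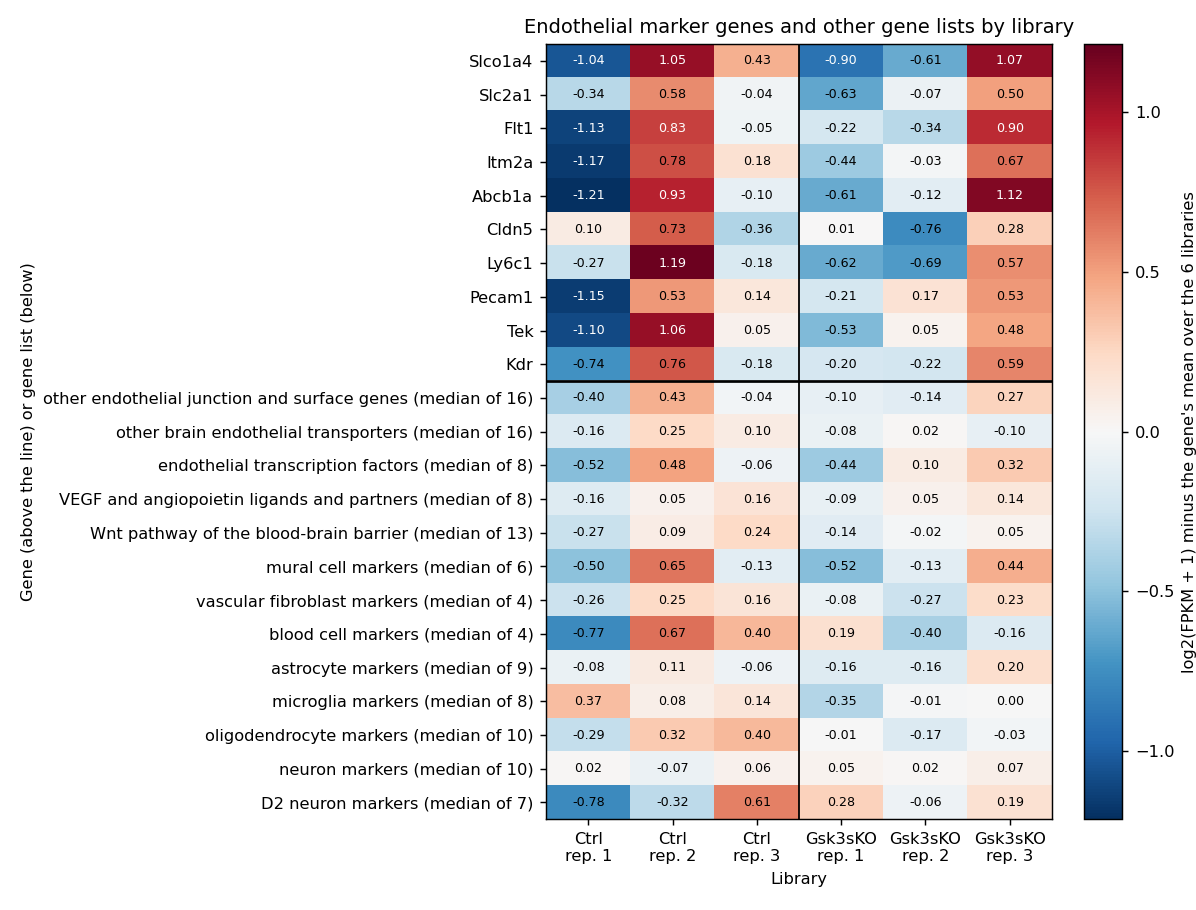
Difference of log2(FPKM + 1) from each gene's mean over the 6 libraries (colour and printed value) for the 10 endothelial genes, above the black line, and as the median over the tested genes of each other list, below it; columns are libraries, with Ctrl left of the vertical line. Ctrl replicate 1 is the lowest Ctrl library for all members but Cldn5 (Slco1a4 -1.04, Abcb1a -1.21), and the mural markers (-0.50 and 0.65) and endothelial transcription factors (-0.52 and 0.48) are also low in Ctrl replicate 1 and high in Ctrl replicate 2, while the neuron markers stay within 0.07 of 0. The D2 neuron (-0.78) and blood cell markers (-0.77) are low in Ctrl replicate 1 too.

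Between the groups, few genes of the wider vascular lists passed the test. Of the 16 other brain endothelial transporters tested, 1 was higher and 1 lower, beside 1.36% and 5.2% of all gene totals. Slc39a10, a zinc importer, lay at 57.7, 60.8 and 62.8 FPKM in the Ctrl libraries and rose to 68.3, 73.7 and 93.0 FPKM with the guide RNA (log2 fold change 0.36, SE 0.15, limma, unadjusted p = 0.0422, adjusted p = 0.750). The highest value of a member in any library was 25.9 FPKM. Slc39a10 varied 1.09-fold within Ctrl and 1.36-fold within Gsk3sKO. Bsg of the same list had a mean of 176 FPKM. Which cells gave the RNA of these transporters was not tested. Abcg2, the drug efflux pump BCRP, lay at 8.004, 9.17 and 6.83 FPKM in the Ctrl libraries and fell to 5.74, 1.54 and 2.41 FPKM with the guide RNA (log2 fold change -1.21, SE 0.36, limma, unadjusted p = 0.0093, adjusted p = 0.651). Abcg2 shares its role at the barrier with Abcb1a, which did not pass the test, and the difference between these genes was not tested. Neither call held after adjustment over all gene totals. The call of Abcg2 held in 14 of 14 alternatives. That of Slc39a10 was lost without moderation of variances (limma, unadjusted p = 0.0601), and, with 1 library left out, without Ctrl replicate 1 (0.0917), Ctrl replicate 2 (0.0917), Ctrl replicate 3 (0.0632), Gsk3sKO replicate 2 (0.0619) or Gsk3sKO replicate 3 (0.118).

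No call was made among the 16 other endothelial junction and surface genes tested, beside 6.56% of all gene totals. Tjp1, the tight junction scaffold ZO-1 that many cell types make, was at 32.4 to 52.6 FPKM in Ctrl and 29.98 to 39.3 FPKM in Gsk3sKO, and Ly6e, a surface antigen, at 16.1 to 24.3 FPKM and 9.91 to 24.8 FPKM. The 8 endothelial transcription factors tested gave no call either. Epas1, the hypoxia factor HIF-2α, was at 10.9, 20.4 and 14.9 FPKM in Ctrl and 13.9, 16.9 and 15.8 FPKM in Gsk3sKO, and Ets1 at 2.21, 3.56 and 2.39 FPKM and 1.88, 2.23 and 3.79 FPKM, both with the library order of Ctrl seen in the members.

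The list of VEGF and angiopoietin ligands and partners likewise had 0 calls among 8 genes tested, beside 6.56% of all gene totals. Vegfb, a ligand of Flt1, was at 19.9 to 20.5 FPKM in Ctrl and 21.5 to 30.9 FPKM in Gsk3sKO (limma, unadjusted p = 0.0823, adjusted p = 0.790), and Nrp2, a semaphorin and VEGF co-receptor, at 12.2 to 15.1 FPKM and 7.70 to 12.8 FPKM. Of 13 tested genes of the Wnt pathway that maintains the barrier, 1 was called, lower in Gsk3sKO, beside 5.2% of all gene totals. Wnt7b, a ligand that neural cells release towards the endothelium, lay at 7.41, 6.14 and 6.86 FPKM in the Ctrl libraries and fell to 3.90, 4.08 and 3.61 FPKM with the guide RNA (log2 fold change -0.68, SE 0.20, limma, unadjusted p = 0.0094, adjusted p = 0.651). The 6 libraries of Wnt7b separated by group, as they did in 12% of all gene totals tested. Those of Tspan12 (means of 1.38 FPKM in Ctrl and 2.94 FPKM in Gsk3sKO) and Plvap (1.81 and 2.52 FPKM) in the same list separated too, in the other direction. The call of Wnt7b was lost in 1 of 14 alternatives, after rescaling without Gm23935 (log2 fold change -0.57, limma, unadjusted p = 0.0680).

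Markers of other cells in the tissue gave 0 calls among 6 mural, 4 vascular fibroblast, 4 blood, 9 astrocyte, 10 neuron and 7 D2 neuron genes tested. The share called over all gene totals was 6.56%. The 2 most abundant genes of each of these cell types overlapped between the groups. Among them were the fibroblast genes Pdgfra (2.09 to 7.33 FPKM in Ctrl, 1.25 to 4.02 FPKM in Gsk3sKO) and Dcn (1.42 to 3.91 and 1.51 to 3.92 FPKM). So were the astrocyte glutamate transporters Slc1a2 (89.4 to 110 and 94.0 to 122 FPKM) and Slc1a3 (20.8 to 26.7 and 24.1 to 26.9 FPKM). The same held for the synaptic vesicle gene Syt1 (448 to 502 and 482 to 575 FPKM), the enkephalin precursor Penk (96.5 to 295 and 136 to 281 FPKM) and Ppp1r1b (25.3 to 48.5 and 31.9 to 46.2 FPKM). The neuron marker Slc17a7 did not overlap, at 262, 273 and 264 FPKM in Ctrl and 253, 261 and 192 FPKM in Gsk3sKO (limma, unadjusted p = 0.243). Such separation was found in 12% of all gene totals tested. Beside the 5.2% of all gene totals that were lower in Gsk3sKO, 2 of 8 microglia genes were lower, namely the complement genes C1qa (log2 fold change -0.82) and C1qb (-0.67). Of 10 oligodendrocyte genes, 4 were lower, beside the same 5.2%, namely the myelin genes Cnp (-0.72), Mag (-0.69), Cldn11 (-0.63) and Mog (-1.57). Only the call of Mog held in all its 13 alternatives. After rescaling without Gm23935, unadjusted p in limma was 0.0617 for C1qa, 0.0846 for C1qb, 0.0979 for Cnp, 0.106 for Mag and 0.125 for Cldn11. With single libraries left out, the call of C1qa was lost without Ctrl replicate 3 (limma, unadjusted p = 0.0708) or Gsk3sKO replicate 2 (0.0658), and that of C1qb without Gsk3sKO replicate 1 (0.0580). Cnp was lost without Ctrl replicates 2 or 3 or Gsk3sKO replicate 2 (limma, 0.0722 to 0.0850), Mag without Ctrl replicates 2 or 3 or Gsk3sKO replicate 3 (0.0619 to 0.0908), and Cldn11 without any 1 of the Ctrl replicates or Gsk3sKO replicate 3 (0.0592 to 0.0832). Cldn11 was also lost with the replicate block (0.0568), and Cnp without moderation (0.0778). No gene of any list passed at an adjusted p under 0.05 in limma, where 6 of all 12874 gene totals did. The part of these other cells in the endothelial values was not tested.

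Single transcripts of the endothelial genes were examined next. Of the 43 transcripts, 38 were above 0 in at least 1 library and 5 at 0 in all, and 16 had a mean of at least 1 FPKM and were tested. None of the 16 was called, against a background of 5.56% of the 21584 transcripts tested (1.81% higher and 3.75% lower in Gsk3sKO), and in none did the groups stand apart, against 11.2%. At an adjusted p under 0.05 in limma, 0 of the 21584 transcripts were called. The lowest p belonged to Pecam1 ENSMUST00000106796, at 0.734, 1.21 and 1.92 FPKM in Ctrl and 1.58, 3.13 and 3.88 FPKM in Gsk3sKO (log2 fold change 0.74, SE 0.42, limma, unadjusted p = 0.128, adjusted p = 0.859). Below the filter, the retained-intron Flt1 transcript ENSMUST00000200895 was the 1 member transcript in which the groups stood apart. It lay at 0.478, 0.505 and 0.483 FPKM in Ctrl and 0.0149, 0.00975 and 0.420 FPKM in Gsk3sKO. It is named for this separation, so no p is given. The share of all transcripts below the filter whose groups stand apart was not determined. How reads are divided between overlapping transcripts is an estimate of the assembler, and a value of 0 can be a failed estimate.

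Flt1 has 2 coding forms of different structure. ENSMUST00000031653 (chr5:147561604-147726011, minus strand, 30 exons) encodes the full receptor of 1333 codons. ENSMUST00000110529 (chr5:147635159-147725988, 13 exons) shares its first 1972 coding bases and then ends at 688 codons, the layout of the soluble VEGF receptor 1, which lacks the membrane and kinase parts and traps VEGF outside the cell. The sequences where the forms part, from GENCODE M21, are shown because they tell the forms apart, with the last 30 shared bases in lower case and the first 92 bases particular to each form in capitals, at chr5:147634432-147634523 for the full receptor and chr5:147639133-147639224 for the short form.
Flt1 ENSMUST00000031653: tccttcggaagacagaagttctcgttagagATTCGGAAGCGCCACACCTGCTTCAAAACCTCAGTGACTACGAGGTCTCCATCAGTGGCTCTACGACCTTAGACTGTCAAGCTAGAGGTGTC
Flt1 ENSMUST00000110529: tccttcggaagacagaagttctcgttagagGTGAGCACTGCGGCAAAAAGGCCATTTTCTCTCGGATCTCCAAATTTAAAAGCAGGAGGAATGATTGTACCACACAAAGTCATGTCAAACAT

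The full Flt1 form was at 2.63, 7.89 and 4.97 FPKM in Ctrl and 4.90, 4.48 and 7.36 FPKM in Gsk3sKO, and the short form at 0.593, 8.57 and 3.31 FPKM and 2.91, 2.64 and 8.63 FPKM. The short form thus spanned 14.4-fold in Ctrl, more than the full form. The share of the short form in the gene total was 16.0%, 49.7% and 37.1% in Ctrl and 37.0%, 37.0% and 47.3% in Gsk3sKO, highest in the libraries where the members as a whole were highest. Neither form passed the test between the groups (limma, log2 fold change 0.16, SE 0.40 and 0.35, SE 0.74).

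Other members also changed their leading transcript from library to library. For Slc2a1, the coding ENSMUST00000030398 made up 40.0% of the gene total in Ctrl replicate 1 and 82.0% to 99.7% in the other 5 libraries. The nonsense-mediated decay form ENSMUST00000174372 held 43.6% of Slc2a1 in Ctrl replicate 1 and 14.5% in Ctrl replicate 2, and was listed at 0 elsewhere. For Abcb1a, the coding ENSMUST00000047753 was the leading form in 5 libraries, but in Gsk3sKO replicate 3 the retained-intron ENSMUST00000126846 took 66.4%. Counting protein-coding transcripts alone, an alternative chosen after seeing the data, Abcb1a was at 1.42, 8.22 and 4.18 FPKM in Ctrl and 2.65, 4.14 and 3.77 FPKM in Gsk3sKO, and Gsk3sKO replicate 3 was then the highest of its group in 9 of 10 members.

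Slco1a4 was divided among a full-length form, ENSMUST00000165990 with 670 codons (2.46, 11.5 and 2.87 FPKM in Ctrl, 3.85, 3.53 and 12.03 FPKM in Gsk3sKO), a short coding form of 139 codons, ENSMUST00000163678 (2.69, 11.5 and 5.58 FPKM, then 1.06, 3.24 and 10.9 FPKM), and a further 670-codon form, ENSMUST00000032364, which was at 6.46 FPKM in Ctrl replicate 3, 0.474 FPKM in Ctrl replicate 2 and 0 elsewhere. Ly6c1 alternated between ENSMUST00000065408 and ENSMUST00000179762, forms of 131 codons each, with the first alone in Ctrl replicate 1 and Gsk3sKO replicate 3 and the second alone in Ctrl replicate 3 and Gsk3sKO replicate 2. Tek was read in Ctrl replicate 1 as ENSMUST00000073939 alone, and in the other 5 libraries mostly as ENSMUST00000102798.

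**Figure D5:**
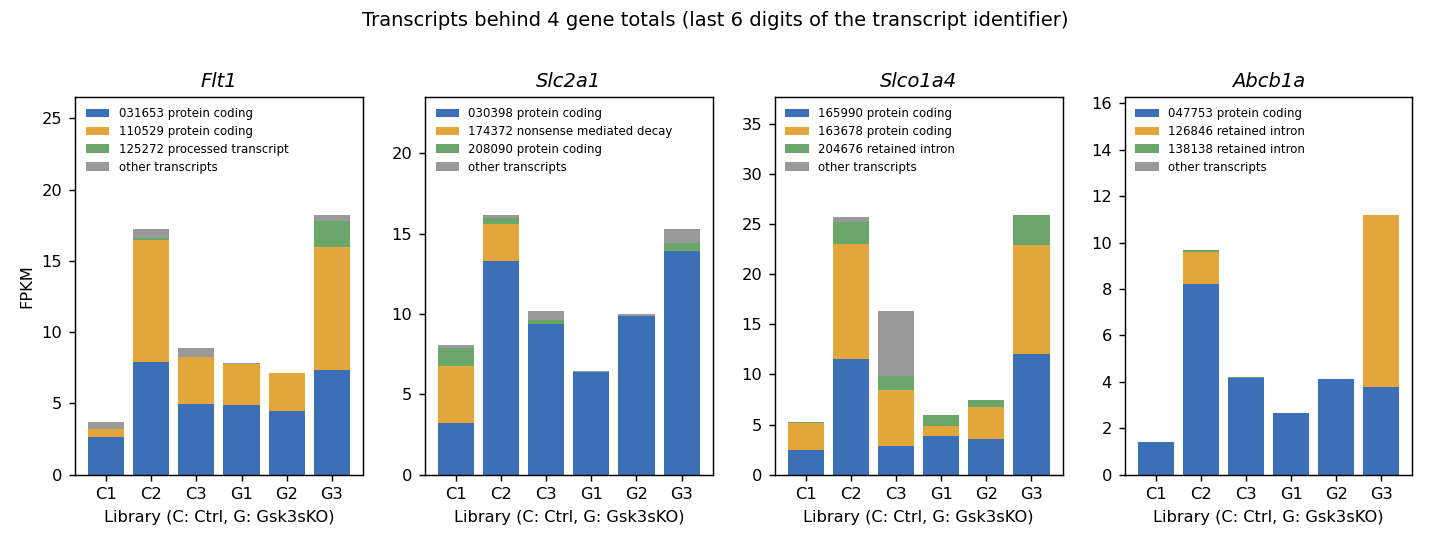
Level (FPKM, stacked bars from 0) of the 3 transcripts with the highest mean and of the rest, for Flt1, Slc2a1, Slco1a4 and Abcb1a, in Ctrl replicates 1 to 3 (C1 to C3) and Gsk3sKO replicates 1 to 3 (G1 to G3), named by the last 6 digits of the identifier and the annotated type. The short Flt1 form makes up 49.7% of the total in C2 and 47.3% in G3, more than the full form, and a retained-intron form makes up 66.4% of Abcb1a in G3.

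Since the members moved together, their promoters were searched for letters that endothelial factors are known to bind. RefSeq promoters of GRCm38.p6, windows of 300 bases around the start of transcription, were taken for 9 of the members, all but Pecam1, and both strands were searched. The ETS core AGGAAG, read also as CTTCCT, was found in 5 of 9 members (Abcb1a, Flt1, Itm2a, Ly6c1 and Slco1a4) and in 35.4% of the 32851 promoters of the table. The letters ACAAT of SOX factors were in 2 of 9 against 31.0%, AGATAA of GATA factors in 2 against 11.2%, and CTTTGA and CTTTGT of the Wnt-dependent TCF and LEF factors in 1 against 16.0% and 3 against 18.7%. The promoter elements TATAAA and GGGCGG were in 3 of 9 against 13.6% and 5 of 9 against 35.7%, and the second ETS spelling CCGGAA in 1 against 14.9%. These counts describe letters in a window and not binding.

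The promoters of the 4 members with the highest levels are shown with AGGAAG or CTTCCT in capitals. Itm2a has 2 overlapping matches that run into 1 stretch, Flt1 has 2, Slco1a4 has 1, and Slc2a1 has 0.
Slco1a4, chr6:141856171-141856470, minus strand: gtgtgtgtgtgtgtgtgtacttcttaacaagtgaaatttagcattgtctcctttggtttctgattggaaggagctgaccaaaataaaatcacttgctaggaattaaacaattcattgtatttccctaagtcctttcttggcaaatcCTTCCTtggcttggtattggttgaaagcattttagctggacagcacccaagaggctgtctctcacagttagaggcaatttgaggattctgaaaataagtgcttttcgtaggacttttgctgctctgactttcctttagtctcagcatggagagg
Slc2a1, chr4:119108495-119108794, plus strand: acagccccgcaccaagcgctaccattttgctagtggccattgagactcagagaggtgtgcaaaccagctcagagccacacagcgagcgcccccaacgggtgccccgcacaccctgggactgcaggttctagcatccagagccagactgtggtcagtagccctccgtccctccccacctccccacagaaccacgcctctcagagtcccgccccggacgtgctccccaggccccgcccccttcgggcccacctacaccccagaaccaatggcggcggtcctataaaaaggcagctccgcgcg
Flt1, chr5:147725962-147726261, minus strand: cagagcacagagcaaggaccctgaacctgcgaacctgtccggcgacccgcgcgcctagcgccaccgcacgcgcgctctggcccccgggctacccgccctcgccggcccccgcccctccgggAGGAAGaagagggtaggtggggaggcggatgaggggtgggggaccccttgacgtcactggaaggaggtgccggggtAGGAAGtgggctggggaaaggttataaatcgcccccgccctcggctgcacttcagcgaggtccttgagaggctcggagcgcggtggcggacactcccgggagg
Itm2a, chrX:107403311-107403610, minus strand: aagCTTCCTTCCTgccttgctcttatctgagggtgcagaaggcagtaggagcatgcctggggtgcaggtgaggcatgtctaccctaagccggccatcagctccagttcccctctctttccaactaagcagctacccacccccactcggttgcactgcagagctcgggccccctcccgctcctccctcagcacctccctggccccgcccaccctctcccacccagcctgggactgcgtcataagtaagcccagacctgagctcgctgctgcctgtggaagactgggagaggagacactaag

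The base composition of these windows differed, with 40.7% G and C in Slco1a4, 65.3% in Slc2a1, 70.7% in Flt1 and 62.0% in Itm2a. Whether promoter composition bears on the order of libraries was not tested.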

How the data were processed

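Ribosome-associated RNA of 3 Ctrl and 3 Gsk3sKO libraries was measured by RNAseq, prepared with a stranded total RNA kit and grouped by the sample titles. The authors deposited FPKM values per transcript and library, made with HISAT2 2.1.0, SAMtools 1.9 and StringTie 1.3.4d on GRCm38 per the submitters' processing notes. The settings of these programs were not stated in the sources read. FPKM depends on all other RNA of a library, so an abundant RNA lowers the rest. The table also holds a fold, a p-value and a q-value per transcript from the authors' own comparison, which were not used.

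FPKM was summed by gene. Gene totals and transcripts with a mean of at least 1 FPKM were compared with limma 3.58.1 in R 4.3.3 (lmFit, eBayes with trend) on log2(FPKM + 1), two-sided, without covariates, over all 6 libraries, and adjusted by Benjamini-Hochberg. A call is an unadjusted p under 0.05. Exact permutation tests used single gene totals. The model was tested on simulated data. Transcripts were matched to GENCODE M21 (114237 of 115220). Depth was inferred, approximately, from steps between the lowest FPKM of transcripts over 800 bases. It limits Ly6c1, Cldn5 and Tek most.

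The members, the other gene lists and the tests were chosen with earlier results of these data known. Named genes are all members, Gsk3b, Drd2 and, of each other list, the genes called or else the 2 with the highest mean, and Snap25 was given for scale. Alternatives were another pseudocount (0.1), no filter, a filter at 5 FPKM, 2 rescalings, no moderation, a replicate block, each library left out, and protein-coding transcripts only, the last chosen after seeing the data. Python 3.11.15, pandas 2.3.3 and matplotlib 3.10.9 were used for tables and figures.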

Additional observations from a re-analysis of the deposited data

How the results depend on the processing

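Across 135 alternative values for the 10 members, none passed an unadjusted p under 0.05 in limma (lowest 0.0997, Ly6c1 without Gsk3sKO replicate 3). The sign was kept in 112 and turned in 23. It turned for Tek to 0.20 with a pseudocount of 0.1, 0.049 after median ratio rescaling, 0.22 after rescaling without Gm23935 and 0.13 with protein-coding transcripts only, for Slc2a1 to 0.050 without Gm23935 and 0.18 with protein-coding transcripts, and for Abcb1a to -0.12 with protein-coding transcripts. The cause was not tested. Leaving out each library in turn, the log2 fold change ranged from -0.57 to -0.01 for Cldn5, -0.17 to 0.67 for Pecam1, -0.27 to 0.71 for Flt1, -0.41 to 0.15 for Slc2a1, -0.23 to 0.52 for Kdr, -0.56 to 0.52 for Tek, -0.28 to 0.79 for Abcb1a, -0.90 to -0.02 for Ly6c1, -0.90 to 0.16 for Slco1a4 and -0.42 to 0.56 for Itm2a.

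The median of the members moved from 0.05 to -0.34 without Ctrl replicate 1, when all 10 were negative, and to -0.24 without Gsk3sKO replicate 3, when 9 were negative. It moved to 0.52 without Ctrl replicate 2 and 0.25 without Gsk3sKO replicate 1, each with 8 positive. Called transcripts numbered 1200, and 1917 without a filter and 590 at a mean of at least 5 FPKM, where fewer were tested and 5 members remained. Member transcripts called were 0 to 1 with a library left out, the 1 being Slc2a1 ENSMUST00000174372 without Ctrl replicate 3 (log2 fold change -1.96, limma, unadjusted p = 0.0116, adjusted p = 0.620). Rescaling without Gm23935 shifted the overall median log2 fold change from -0.06 to 0.10 and the calls from 175 higher and 669 lower to 489 and 425, and median ratio rescaling gave 307 and 502. The deviations of same-numbered libraries from their group means had r of -0.03, -0.01 and -0.08, and those of other pairs lay between -0.03 and 0.05. Values near 0 over all genes cannot show whether same-numbered libraries share a preparation, which the labels do not give. With a replicate block 821 gene totals and 0 members were called, against 844 and 0.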
